A study of Drosophila melanogaster with 2 samples.

Results

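Peaks of GFP-tagged lms protein were examined around 10 genes that regulate the identity of body wall muscles: slou, eve, nau, kn, Poxm, vg, Ptx1, run, tup and Six4. The genes were chosen by name, as regulators of dorsal, ventral and other muscle founders outside the lateral set, from 13968 annotated protein-coding genes. For each, every peak summit in the gene or within 20 kb either side was collected. The chromatin came from whole Drosophila melanogaster embryos of both sexes, 6 to 18 hours old by the source label, of a transgenic line that stably expresses lms (CG13424) with GFP at its C-terminus. What drives the transgene was not stated, the hours under a further age label disagree with the source label, and no tissue was isolated, so the peaks are a sum over all cells that carry the tagged protein. There was 1 group with 2 biological replicates, precipitated with an antibody against GFP. No second condition existed, and no test between conditions was possible. There were 4 deposited lists. Those of replicate 1, of replicate 2 and the pooled list called on both replicates had 30000 peaks each. The last was the list thresholded by the irreproducible discovery rate procedure, with 7521 peaks, called IDR peaks here. These were the 7521 highest peaks of the pooled list, so a single IDR peak need not have a partner in each replicate. Ranks follow the signal column, a score of the authors' peak caller, with rank 1 the highest of its list.

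Each larval body wall muscle starts from a founder cell that expresses its own combination of identity transcription factors and then fuses with neighbouring myoblasts. These factors give the muscle its position, size and attachment. lms, a homeodomain protein, is known from the lateral muscles. The 10 genes studied act mostly in other muscles and are of several families. eve, slou, Ptx1, tup and Six4 encode homeodomain proteins, nau is the fly MyoD homologue, kn is a COE (EBF) family factor, Poxm a paired-box factor, run a Runt-domain factor and vg a cofactor of the TEA-domain protein Scalloped.

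These loci had IDR peaks within reach about as often as all protein-coding genes. Counts at the identity genes themselves were below, near or above the shares of all genes, depending on the measure. Of the 10 genes, 9 had an IDR summit in the gene or within 20 kb, where 86.7% of all protein-coding genes had one. Only Poxm had an IDR summit within 500 bp of its own start site, beside 28.8% of all protein-coding genes. An IDR summit inside the gene was found in 3 of the 10 (nau, kn and Ptx1), beside 16.0% of all, a share not matched for gene length. For 3 of the 10 (Poxm, kn and tup) an IDR summit had a start site of that gene as its nearest, beside 29.6% of all. With 10 genes, these counts are descriptions, and none was tested against chance.

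The sequences at summits in or upstream of 5 of these genes are shown as examples, among them the highest peak of the nau window, which lay nearest to CG10365. They are not typical of the 42 IDR summits found. Their GC content ran from 17.8% at run to 33.7% at Ptx1, and most lay below the median of 31.7% over the 42. The summit in an intron of kn, not shown, had a GC content of 34.7% and a longest run of A and T of 7 bp. Each runs from 50 bp before to 50 bp after the summit, read 5′ to 3′ on the plus strand of the RefSeq release 6 genome, the dm6 build. Capitals mark the longest unbroken run of A and T, or the first where runs tie, as in the farther tup window.
Poxm, 454 bp upstream of its start site, chr3R:8334196-8334296: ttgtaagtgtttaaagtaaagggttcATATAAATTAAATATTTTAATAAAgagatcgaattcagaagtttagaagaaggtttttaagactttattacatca
nau, in an intron, chr3R:23714063-23714163: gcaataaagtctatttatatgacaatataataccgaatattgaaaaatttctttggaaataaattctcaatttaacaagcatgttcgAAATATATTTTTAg
nau, 4652 bp upstream, chr3R:23722959-23723059: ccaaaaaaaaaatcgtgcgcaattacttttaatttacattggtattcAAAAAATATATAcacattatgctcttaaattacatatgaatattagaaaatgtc
Ptx1, in an intron, chr3R:30918977-30919077: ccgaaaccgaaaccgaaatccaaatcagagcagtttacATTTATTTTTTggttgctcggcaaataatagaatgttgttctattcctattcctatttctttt
tup, 1238 bp upstream, chr2L:18882449-18882549: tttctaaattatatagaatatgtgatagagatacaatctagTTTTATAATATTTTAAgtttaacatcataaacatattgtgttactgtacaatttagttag
tup, 9020 bp upstream, chr2L:18890231-18890331: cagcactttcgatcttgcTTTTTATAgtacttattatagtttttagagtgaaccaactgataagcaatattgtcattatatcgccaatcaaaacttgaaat
run, 2743 bp upstream, chrX:20687877-20687977: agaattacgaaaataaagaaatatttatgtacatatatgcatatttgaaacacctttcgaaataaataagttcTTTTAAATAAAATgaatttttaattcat
In these windows the run of A and T ranged from 8 bp at the farther tup summit to 24 bp at Poxm. None of them holds TAATTA, the core sequence many homeodomains bind, which was in 11.3% of all IDR windows of this length. With so few windows, chosen as examples, this absence says little.

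A contrasting summit in the Poxm neighbourhood, at the promoter of Sgt1, is shown with the element recognised by the promoter factor DREF in capitals, where the longest run of A and T was 5 bp.
Sgt1 promoter, chr3R:8305338-8305438: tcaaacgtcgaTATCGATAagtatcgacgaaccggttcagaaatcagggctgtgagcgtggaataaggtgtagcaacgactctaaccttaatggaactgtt

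The loci differed widely in how many IDR summits they held. In total there were 42 IDR summits in the 10 windows, with a median of 3.5 per gene, against a median of 3 over all protein-coding genes (quartiles 1 and 5). tup and Six4 had 9 each, nau 8, vg 5, Poxm 4, eve 3, kn 2, Ptx1 and run 1 each, and slou had 0. Having 8 or more summits put tup, Six4 and nau among 9.91% of protein-coding genes, and these 3 genes held 26 of the 42 summits. Per 10 kb of window, Six4 was densest with 2.05 summits and Ptx1, of those with any, was sparsest with 0.173. The median over the 10 genes was 0.727 per 10 kb, against 0.720 over all protein-coding genes.

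**Figure D1:**
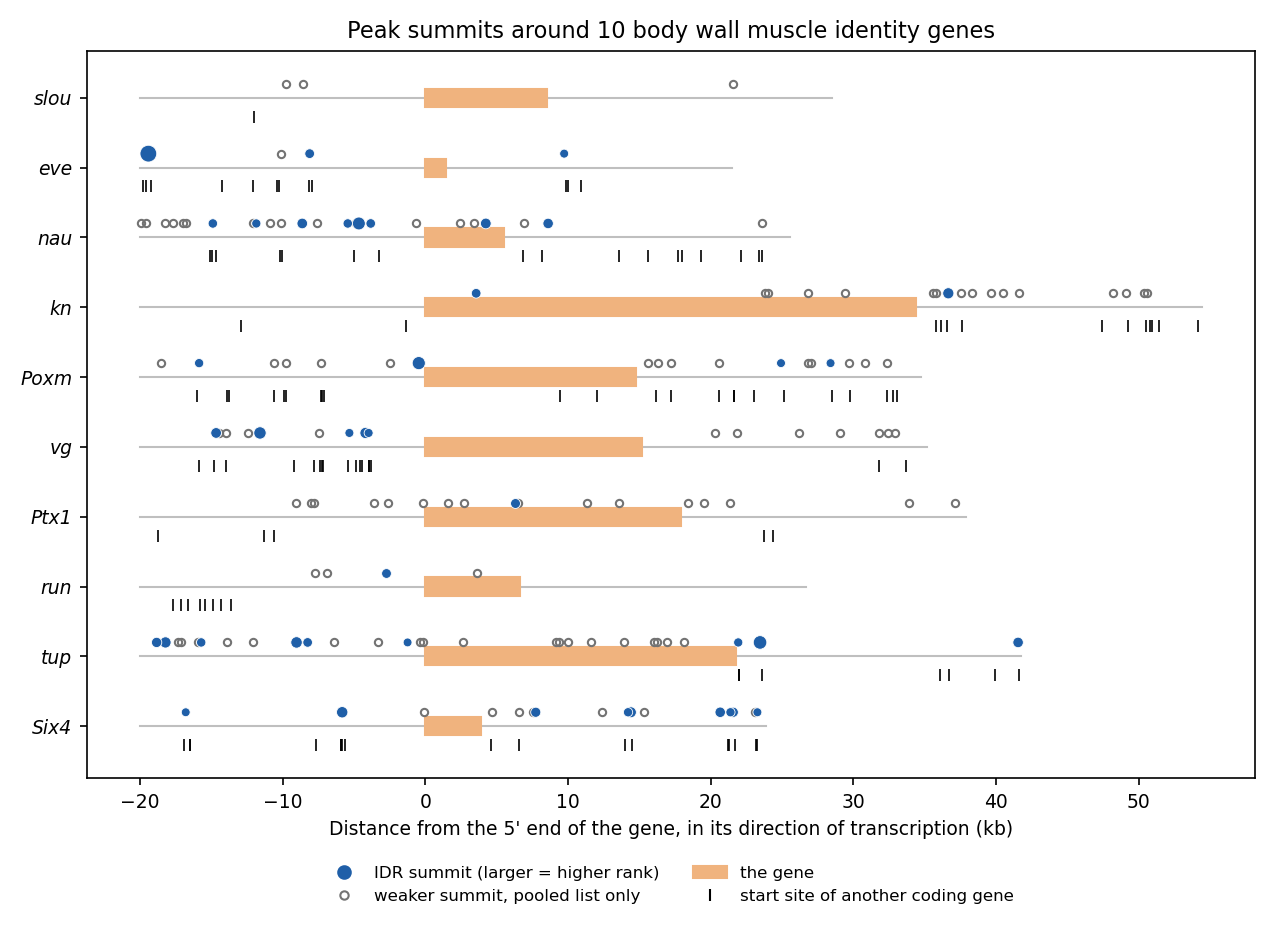
Positions of peak summits in the window of each gene, along its direction of transcription in kb from its 5' end, with filled points for IDR summits, open circles for weaker summits of the pooled list, orange bars for the gene and ticks for start sites of other coding genes. The filled points of Six4 and vg stand mostly over ticks of neighbouring genes, whereas slou has 3 open circles and no filled point.

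Most of the 42 summits lay at start sites of neighbouring genes. Of the 42, 30 (71.4%, exact 95% binomial interval 55.4 to 84.3%, counting error only) were within 500 bp of an annotated start site, beside 45.9% of all 7521 IDR summits. Summits in 1 window are not independent, so the interval is too narrow. The 42 were made up of 25 at start sites of other coding genes, 4 at start sites of noncoding genes only, 1 at the start site of Poxm, 3 inside nau, kn or Ptx1, 2 inside other genes and 7 between genes. Of the 30 at start sites, 23 were upstream of the nearest one (76.7%, beside 83.1% of all IDR summits at start sites), with a median position of -98 bp, beside -115 bp. None of the 42 lay in a coding exon.

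**Figure D2:**
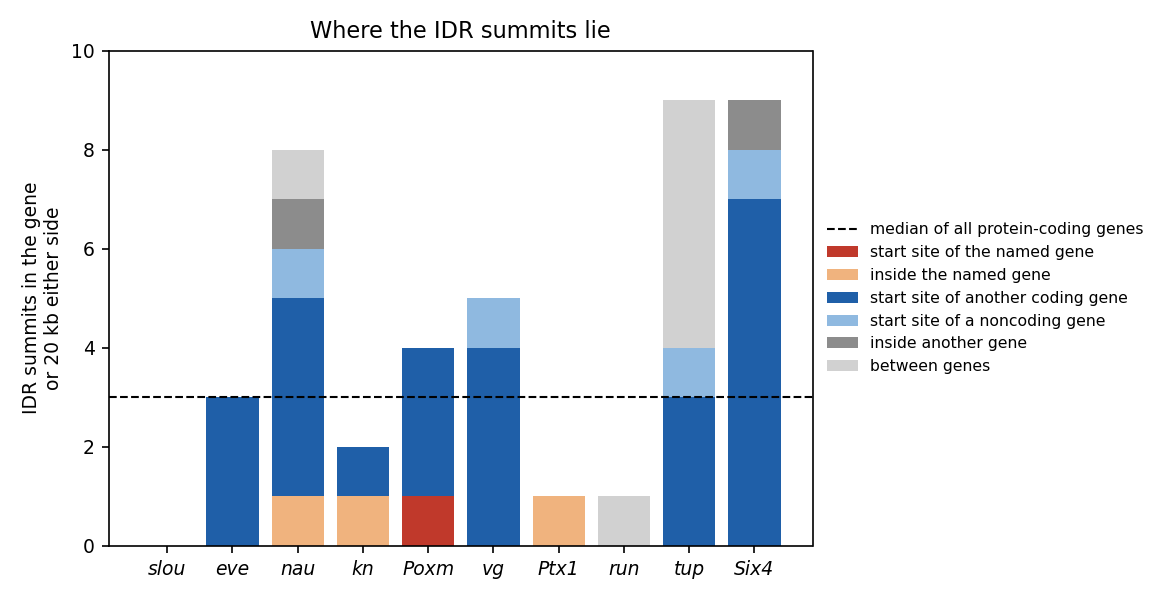
IDR summits per gene (bar height, in summits) split by where they lie, with a dashed line at the median of 3 over all protein-coding genes. Dark blue, the start sites of other coding genes, makes up 7 of the 9 summits of Six4, while pale grey, between genes, makes up 5 of the 9 of tup.

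The number of summits went with the number of neighbouring genes. Other coding genes with a start site in the window numbered 1 for slou and for run, 4 for Ptx1, 6 for tup, 7 for eve and for vg, 9 for kn, 13 for nau and for Six4 and 20 for Poxm. Over the 10 genes this number had a Spearman rho of 0.628 with the count of IDR summits, and over all 13968 protein-coding genes, whose windows overlap, one of 0.329. Poxm, with the most neighbours and 4 summits, and tup, with fewer neighbours and 9 summits, depart from that order.

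Of the genes of dorsal and dorsolateral muscles, tup had 9 IDR summits, eve 3 and kn 2. tup encodes the LIM-homeodomain homologue of Islet and acts in dorsal muscles and heart cells (2L, 18859507 to 18881261). Its IDR summits had ranks from 336 to 7468. The highest (signal 1512) lay past the end of the gene, 119 bp upstream of a start site of CG10602, and ranked 333 in replicate 1 and 389 in replicate 2. Upstream of tup, in sequence with no start site of another coding gene, there were 6 summits, spread over 1238 to 18825 bp. The highest of these, 9020 bp upstream, ranked 1569 in replicate 1 and 1659 in replicate 2, and the next, at 18205 bp, ranked 1905 and 1927. The summit nearest to the tup start site was the weakest, with rank 7468 in the IDR list, 7363 in replicate 1 and 7114 in replicate 2.

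eve marks a dorsal founder and pericardial cells (2R, 9979319 to 9980795). It had the highest peak of any of the 10 windows, with a signal of 5244 and rank 19 of 7521, and ranks of 21 in replicate 1 and 12 in replicate 2. That peak (2R, 9959651 to 9960156) was 19404 bp from eve, close to the end of the window, in an intron of Pal1 and 163 bp upstream of one of its start sites. It was also 1057 bp upstream of Mef2, which drives muscle differentiation, so the peak is shared with that locus. The other IDR summits were at CG12134, 8100 bp upstream (rank 4666), and at TER94, which encodes an AAA-type ATPase, 9736 bp downstream of the eve start site (rank 7064). No pooled summit lay in eve or within 8 kb of its start site. Replicate 2 alone had 1 summit within 2 kb upstream of eve, and replicate 1 had 0 there.

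kn, known as collier in muscle work, specifies a dorsolateral muscle (2R, 14772650 to 14807061). Its window, the longest at 74.4 kb, held 2 IDR summits. One was in an intron of kn, 3568 bp from its nearest start site, with rank 4793 in the IDR list, 4575 in replicate 1 and 6538 in replicate 2. The higher one was past the end of kn, 65 bp upstream of the insulator protein gene BEAF-32, with ranks of 1942 in replicate 1 and 1915 in replicate 2. run, the Runt-domain gene (X, 20690670 to 20697321), had 1 IDR summit, 2743 bp upstream and over 1 kb from any start site, with rank 4498 in replicate 1 and 6238 in replicate 2.

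Among the genes of ventral muscles, Poxm had the strongest peak at an identity gene. Poxm (Pox meso; 3R, 8319025 to 8333792) had its peak (3R, 8334043 to 8334503) 454 bp upstream of its single start site, in sequence between genes. The signal was 1236 and the IDR rank 475, and the peak ranked 600 in replicate 1 and 234 in replicate 2. The other 3 summits of its window were over 10 kb from the gene, at Atg13, an autophagy gene, at tex and at Sgt1, and had IDR ranks from 6132 to 7231. They were less steady between replicates. Atg13 ranked 7643 in replicate 1 and 2470 in replicate 2, Sgt1 6242 and 17467, and the tex summit, 6509 in replicate 1, had no partner within 150 bp in replicate 2.

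vg (2R, 12884201 to 12899385) had 5 IDR summits, all upstream and none in the gene, although it is over 15 kb long. The highest (signal 877) was 137 bp upstream of a noncoding antisense gene, asRNA:CR43469, 11582 bp from vg, with rank 832 in replicate 1 and 1012 in replicate 2. Another 3 were at start sites of Nmda1, which AspRS, an aminoacyl-tRNA synthetase gene, overlaps, and 1 was at CG17574. The weakest, with rank 5550 in replicate 1, had no partner in replicate 2.

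Ptx1, a homeodomain gene of the bicoid and Pitx type expressed in ventral muscles (3R, 30912754 to 30930682), had 1 IDR summit. It lay in an intron, 6273 bp from the start site, with a signal of 238 and rank 4252. In replicate 1 it ranked 4080 and in replicate 2 5962.

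The remaining genes act more broadly. nau, required in many muscles (3R, 23712814 to 23718357), had 8 IDR summits, of which 6 were upstream. The highest (signal 1128) was 4652 bp upstream of nau and 322 bp upstream of CG10365, with ranks of 521 in replicate 1 and 875 in replicate 2. The summit in an intron of nau ranked 2501 and 2744. The others included RNaseMRP:RNA, a noncoding RNA gene. A pair of summits in the nau window were far weaker in replicate 2, with ranks of 4884 in replicate 1 and 25997 in replicate 2 at CG10365, and of 5809 and 21680 at RNaseMRP:RNA.

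Six4, a sine oculis family gene of the mesoderm (3L, 20788886 to 20792777), had 9 IDR summits and none in the gene or within 5 kb of it upstream. Of these, 7 were at start sites of coding genes, 1 at an antisense RNA gene and 1 in an intron of the kinase gene Pitslre. The highest (signal 536) lay at a start site of tzn, 5820 bp upstream of Six4, with ranks of 1805 in replicate 1 and 1334 in replicate 2. The next lay between Pex14 and Pex16, which encode peroxisome biogenesis proteins, with ranks of 2623 and 1435. The summit at HIPP1, a gene of an HP1 and insulator partner protein, ranked 5023 in replicate 2 and had no partner in replicate 1.

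slou, an NK-type homeodomain gene of a subset of founders (3R, 21548661 to 21557182), had no IDR summit, as did 13.3% of protein-coding genes. It also had few neighbours, and among the 2016 protein-coding genes with at most 3 neighbouring coding genes in the window 36.6% had no IDR summit. A link between the number of neighbours and the missing summit at slou was not tested, and run, also with 1 neighbour, had an IDR summit. In the slou window the pooled list had 3 summits, the best with rank 9851. Replicate 1 had 4 with a best rank of 10665, and replicate 2 had 9 with a best rank of 9513. None of these was inside slou.

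With weaker peaks counted too, the genes had summits at their own start sites about as often as all protein-coding genes. The pooled list had 147 summits in the 10 windows, of which 105 ranked below the IDR list. Replicate 1 had 148 and replicate 2 had 154. Of the 105 weaker summits 35.2% were within 500 bp of a start site, beside 27.5% of all 22479 weaker pooled summits. In the pooled list 5 of the 10 genes had a summit within 500 bp of an own start site, beside 53.4% of all protein-coding genes. These were Poxm, Six4 (at -112 bp, rank 10159), tup (-174 bp, rank 12432), Ptx1 (-146 bp, rank 12710) and run (-124 bp from its second start site, rank 22832).

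Inside the genes, the pooled list had 25 summits, in 5 of the 10 genes. Of all protein-coding genes 34.2% had at least 1, a share not matched for gene length. tup had 10, Ptx1 6, kn 5, nau 3 and run 1, and slou, eve, Poxm, vg and Six4 had 0. All 10 in tup and all but the strongest in Ptx1, kn and nau ranked below the IDR list. The single lists were less settled than the pooled one: Poxm had 0 summits inside the gene in replicate 1 and 3 in replicate 2, and run had 0 in replicate 1 and 2 in replicate 2. At the lower limit of the IDR list the nearest values were both at tup, with rank 7468 inside it and 7534, 3316 bp upstream, just outside. At the 20 kb limit, the outermost summits inside were 19387 bp from Six4, 19404 bp from eve and 19794 bp from tup, and the first outside were 20251 bp from kn and 20448 bp from eve.

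The replicates shared the summits of these loci about as often as they shared all IDR summits. Of the 42, 39 had a partner within 150 bp in both replicates, beside 95.4% of all IDR summits. The IDR list was derived from these same replicates, so a high share with partners is built into it. The summits lay a median of 1 bp from their partner in replicate 1 and 18 bp in replicate 2. The 39 ranks had a Spearman rho of 0.826 between replicates, and the 7176 ranks of all such IDR summits one of 0.824, as descriptions across peaks that share libraries and a control. Among the 7521 highest peaks of both replicates were 32 of the 42 (76.2%), beside 77.0% of all IDR summits. Ranks differed by a median of 1.35-fold for the loci studied and by 1.31-fold over the list. The 3 summits whose ranks differed by over 3-fold were those at CG10365 and RNaseMRP:RNA near nau and at Atg13 near Poxm. Each of the 3 summits without a partner lay at a start site of another coding gene.

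**Figure D3:**
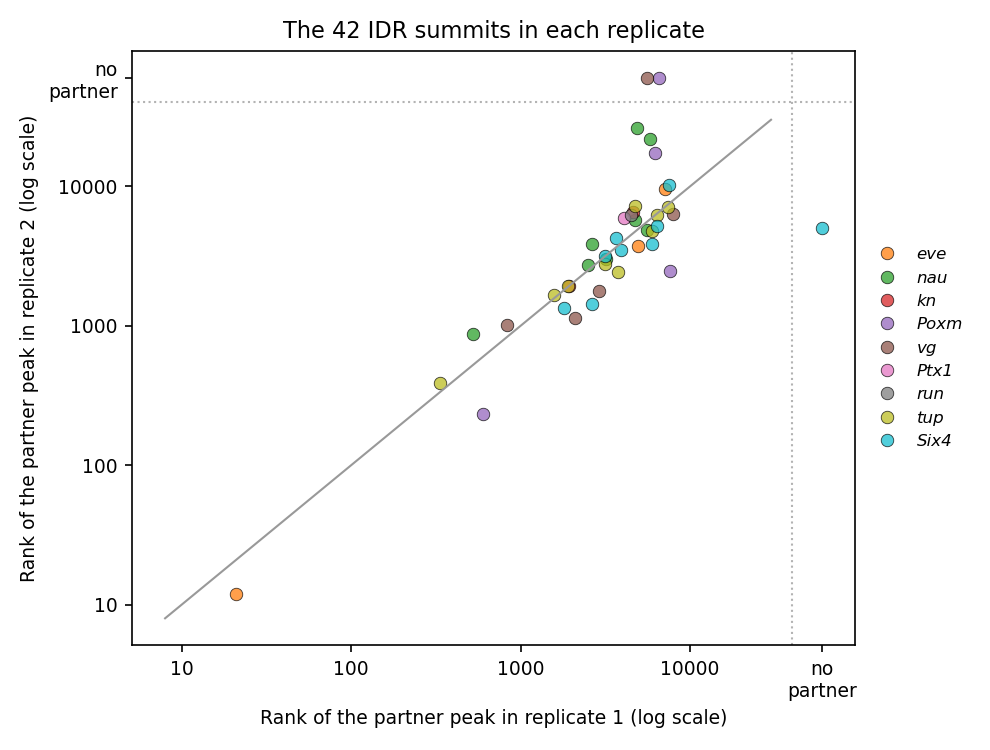
Rank of the partner peak in replicate 1 and in replicate 2 for the 42 IDR summits, on log axes, coloured by gene, with summits lacking a partner beyond the dotted lines and overlapping points drawn over each other. The eve window peak stands apart at ranks 21 and 12, and the points farthest above the diagonal are a pair of nau at replicate 2 ranks of 21680 and 25997.

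By rank, the peaks of these loci were spread through the IDR list. Of the 42, 9 (21.4%) were at rank 1880 or better, in the upper 25% of the list, and their median rank was 4394, against a median of 3761 for the list. The 9 came from 6 genes: eve, nau, Poxm, vg, tup and Six4. Of the 9, only the Poxm peak was at the start site of the named gene, and the 2 upstream of tup were the only ones over 500 bp from any start site.

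The summits were as rich in A and T as those of the whole list. GC content within 50 bp of the summit had a median of 31.7% over the 42, against 30.7% over all IDR summits (quartiles 25.7 and 36.6%). It was lowest at the run summit, with 17.8%. For the 12 summits over 500 bp from any start site the median was 28.7%, against 29.7% for all such IDR summits, and for the 30 at start sites 32.7%, against 30.7%. The longest run of A and T had a median of 10 bp in both the 42 and the full list. At Poxm, where the run was 24 bp, the GC content was 22.8%.

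**Figure D4:**
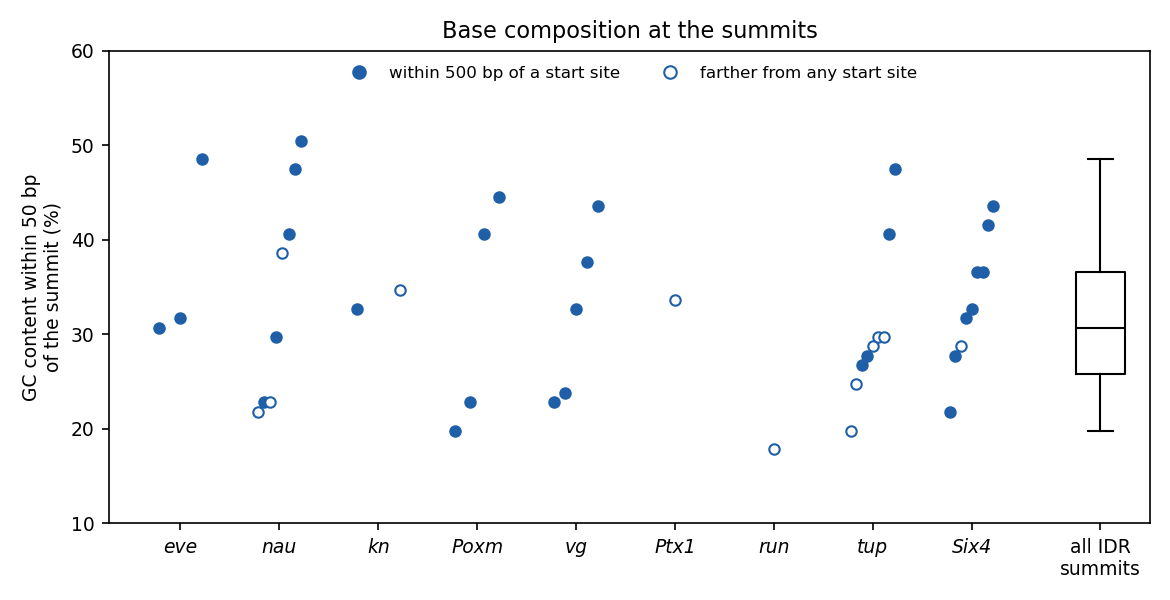
GC content in percent within 50 bp of each of the 42 IDR summits by gene, filled within 500 bp of a start site and open farther away, beside a box of all IDR summits with median, quartiles and whiskers at the 5th and 95th percentiles. Values within a gene range widely, and the run summit lies lowest at 17.8%.

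Motifs were searched on both strands of the same windows, and a match is a run of letters, not a shown site. TAATTA was in 2 of the 42 windows (4.76%, exact 95% binomial interval 0.582 to 16.2%), beside 11.3% of all IDR windows. Both lay upstream of vg, at asRNA:CR43469 and at Nmda1. CANNTG, the E-box bound by bHLH proteins such as nau, was in 15 (35.7%), beside 32.8%, and its special form CATATG, which every such count of CANNTG includes, in 2 (4.76%), beside 3.95%. The Mef2-type sequence was in 3 (7.14%), beside 8.34%. TATCGATA was in 2 (4.76%), at Sgt1 and Nmda1, beside 1.58%. GAGAGAG was in 2, beside 0.678%, and TAATCC, the core bound by bicoid-type homeodomains, in 1, beside 2.93%. For each motif named here the share over all windows lay inside the binomial interval of the 42.

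Other regulators of muscle were listed in the same way. Where the 10 identity genes had a median of 3.5 IDR summits in the window, 12 further muscle identity regulators, lms among them, had a median of 2.5, and 12 regulators of mesoderm, heart and visceral muscle had one of 6. Per 10 kb of window the medians were 0.727, 0.476 and 1.10. A summit in the window was found for 9 of the 10 genes, for 9 of the 12 further identity regulators (ap, Kr and lbe had 0) and for all 12 of the mesoderm list. At an own start site there was a summit for 1 of the 10, for 2 of the further 12 and for 2 of the mesoderm list. Inside the gene the numbers were 3 of the 10, 6 of the further 12 and 4 of the mesoderm list. The highest peak in the windows of the further identity regulators was 357 bp upstream of org-1, a T-box gene of founders, with rank 260. The next, at a start site of Trmt6, was in the window of eya, which encodes the partner of Six4, with rank 743. lms itself had 4 summits within 20 kb and none in the gene. Mef2 had 13, and 2 of them are also in the eve window. Within the comparison lists some windows also overlap, so a summit can count more than once. The windows of caup and ara shared their highest peak, and so did those of Doc2 and Doc3. These lists are small and their differences were not tested.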

How the data were processed

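The data were ChIP-seq peaks of 2 biological replicates of 1 group. Per the labels, the assembly was dm6. The deposited notes give the control as 1 alignment for both replicate lists and the pooled list, and name those lists as the source of the IDR list. The caller, its settings and the read depth are not given in the sources used here, and intervals from reads could not be had. Each deposited list gives a signal score on its own scale (median 50.7 in replicate 1, 13.7 in replicate 2), and only ranks by it, within 1 list, were used. The −log10 q-values deposited by the authors and peaks past 30000 were not used here. The IDR list equalled the 7521 highest peaks of the pooled list.

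A summit is column 2 plus column 10, counted from 1. Annotation was Ensembl release 115 on dm6 coordinates, without transposable elements. Start sites were those of all transcripts. Partners were summits within 150 bp. Counting was tested on planted summits. The genes named are the 10 studied, the genes at their summits and members of the 2 comparison lists. The 10 genes and the lists were chosen with earlier results of these data known. The run of A and T, the summary by neighbouring genes and the sequences shown were chosen after the data were seen. Because the 2 replicates are of 1 group, nothing here measures the spread between conditions. Software was Python 3.11.15 with numpy (2.4.6), pandas (2.3.3), scipy (1.17.1) and matplotlib (3.10.9).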

Additional observations from a re-analysis of the deposited data

How the results depend on the processing

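Of 29 alternative values for the main results, 19 stayed within the range set for them. Of 104 further values, for the counts of single genes and for motifs other than TAATTA, 55 stayed and 49 moved, so counts per gene depend strongly on the settings. With a 10 kb or 5 kb window the 42 summits became 23 and 15, by construction, and 9 and 8 genes had one. With the gene and 2 kb upstream, 5 genes had 5 summits in all (nau, kn, Poxm, Ptx1 and tup), and with the nearest start site 3 genes had 3. The upper 50% of the IDR list left 20 summits near 7 genes, and the whole pooled list had 147 near all 10. With 1 replicate left out, the 7521 highest peaks of the other replicate were used, as many as in the IDR list. The number of genes was then 9 and the total of summits 42 in both cases, but gains and losses at single genes offset each other. Because the list size was held equal, the equal totals say little about how steady the count is. Without replicate 1, kn rose to 4 and Ptx1 to 2, while nau fell to 7, vg to 4 and Six4 to 8. Without replicate 2, nau rose to 9 and tup to 10, while vg fell to 4 and Six4 to 8. The share at start sites ran from 61.9 to 66.7% with 1 replicate left out. That share was 59.5% within 250 bp and 76.2% within 1 kb. The matching shares over all peaks under these settings are not given, so these values cannot be set beside the 45.9% of all IDR summits. Partners in both replicates numbered 32 within 50 bp. TAATTA was in 21.4% of windows reaching 100 bp either side, beside 19.6% of all IDR windows, and in 0% of those reaching 25 bp, beside 5.73%, so its share near these genes moved with the window. No paired analysis was possible because there was 1 group. Depth was unknown, so a gene with no summit is only a gene below the limits of these lists.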
